A study of Mus musculus with 6 samples.

Results

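The IgG Fc receptor genes were the 6 genes *Fcgr1*, *Fcgr2b*, *Fcgr3*, *Fcgr4*, *Fcer1g* and *Fcgrt*, taken by symbol and matched to the 39179 mouse Ensembl identifiers whose reads were counted in bone marrow RNA. All 6 were found and all 6 had enough counts to be tested, among 15980 tested genes. Fcγ receptors are surface proteins of blood cells that bind the constant part of IgG antibodies. The receptors encoded by *Fcgr1* (high affinity), *Fcgr3* and *Fcgr4* are activating and signal through the common γ chain, the product of *Fcer1g*, which is also needed to bring them to the cell surface. The product of *Fcgr2b* is the inhibitory receptor, the Fcγ receptor of B cells, which myeloid cells also carry. *Fcgrt* encodes the neonatal Fc receptor, which pairs with β2-microglobulin inside cells and returns IgG and albumin to the blood instead of letting them be degraded.

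The *MxCDX2* group held 3 mice with both the *RsCDX2* knockin, in which the human *CDX2* coding sequence lies behind a stop sequence flanked by loxP sites at *Rosa26*, and the *Mx1Cre* transgene, in which Cre is driven by the interferon-inducible *Mx1* promoter. The 3 control littermates carried *RsCDX2* alone (control 1), *Mx1Cre* alone (control 2) or neither (control 3, the wild-type control), so no control genotype was replicated. All 6 mice, controls included, were 3 months old, received 3 poly(I:C) injections of 10 µg per g of body weight, and were analysed 6 weeks later. *Mx1Cre* acts in every cell that responds to interferon and is not limited to blood cells.

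Between 38646101 and 49899650 reads per mouse were counted on genes. Mouse *Cdx2*, on which reads of the human transgene could also be counted, had 4, 0 and 0 reads in the controls and 152, 155 and 183 in the *MxCDX2* mice. The first principal component held 61.0% of the variance and separated the groups, and the second, with 15.9%, set the wild-type control apart. That mouse also had 9.83 times the mean summed level of 4 megakaryocyte markers of the other controls, so calls that were gained or lost without it are given below. The quasi-likelihood test of edgeR was used for differences (SE stands for standard error), and a gene was called when its absolute log2 fold change was above 1 and its adjusted p below 0.05, adjusted by the Benjamini-Hochberg method over all 15980 genes. Levels are in CPM, the usual scaling of a count by library size, here with TMM-adjusted sizes. They describe whole bone marrow RNA, in which fewer cells of a type and less RNA per cell cannot be told apart.

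The inhibitory receptor gene *Fcgr2b* rose and the activating receptor gene *Fcgr4* fell in *MxCDX2* bone marrow, while *Fcgr1*, *Fcgr3*, *Fcer1g* and *Fcgrt* did not pass the thresholds. Thus 1 of the 6 genes was called higher, against 4.59% of all tested genes, and 1 was called lower, against 9.03%. The call of *Fcgr2b* stood in every fit with a mouse left out, and that of *Fcgr4* was lost in 5 of 6. The plot of levels by mouse shows all 6 genes.

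**Figure D1:**
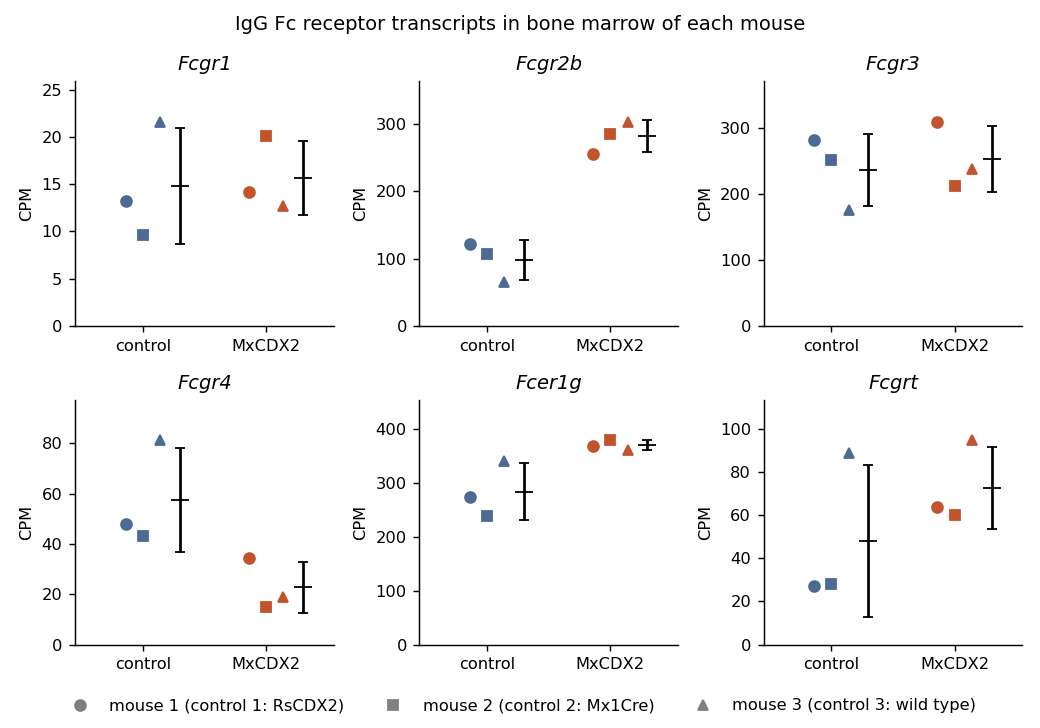
Level (CPM, linear axis from 0) of each gene in each mouse, with 3 controls in blue and 3 *MxCDX2* mice in orange. Symbols give the mouse number, horizontal bars the mean and vertical bars the SD (n = 3). The groups lie apart for *Fcgr2b*, *Fcgr4* and *Fcer1g*, of which *Fcer1g* was not called. How many of all tested genes lie apart in this way was not counted, so lying apart is not read as particular to these genes. The wild-type control (blue triangle) is the highest control for *Fcgr1*, *Fcgr4*, *Fcer1g* and *Fcgrt* and the lowest for *Fcgr2b* and *Fcgr3*.

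*Fcgr2b* (ENSMUSG00000026656), on chromosome 1 (170958617 to 170976547, minus strand, GRCm38), had 122, 107 and 65.4 CPM in controls 1, 2 and 3 and 256, 285 and 303 CPM in *MxCDX2* mice 1, 2 and 3. Every *MxCDX2* mouse lay above every control, and the lowest *MxCDX2* value was still above the highest control value by more than the SD of either group (29.1 and 23.7 CPM, n = 3 each). The level was 2.88-fold higher (95% confidence interval 1.96 to 4.22), a log2 fold change of 1.52 (edgeR, SE 0.23, adjusted p = 0.00642). Without the wild-type control, which had the lowest level, it was 1.32 (adjusted p = 0.00258).

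*Fcgr2b* is the Fcγ receptor gene of B cells, and the B-cell markers moved the other way. Of 8 B-cell markers, 6 were called lower and none higher, and their summed level was 476 to 1120 CPM in controls and 124 to 314 CPM in *MxCDX2* mice. The defining gene *Cd79a* had a log2 fold change of -2.01. Monocytes and macrophages also carry the inhibitory receptor. Of 9 monocyte and macrophage markers, 4 were called higher and none lower (*Csf1r*, *Ly6c2*, *Ccr2* and *F13a1*), and their summed level was 1160 to 1780 CPM in controls and 6120 to 7150 CPM in *MxCDX2* mice. No marker of either list was at 0 in any mouse, and the part of these cell types in the rise of *Fcgr2b* was not tested.

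*Fcgr4* (ENSMUSG00000059089), which lies 42.4 kb from *Fcgr2b* on the plus strand of chromosome 1 (171018920 to 171029761), encodes an activating receptor of monocytes, macrophages and neutrophils. It had 48.1, 43.1 and 81.2 CPM in the controls and 34.3, 15.0 and 18.7 CPM in the *MxCDX2* mice. The groups did not overlap, but *MxCDX2* mouse 1 came close to the lower controls and the wild-type control stood well above the others. The log2 fold change was -1.34 (edgeR, SE 0.38, 95% confidence interval -2.24 to -0.45, adjusted p = 0.0463). This call was close to the threshold and was lost in 5 of 6 fits with a mouse left out. It was -0.99 (adjusted p = 0.0849) without the wild-type control, -1.44 (0.0731) without control 1, -1.51 (0.0573) without control 2, -1.11 (0.124) without *MxCDX2* mouse 2 and -1.22 (0.150) without *MxCDX2* mouse 3, and only without *MxCDX2* mouse 1 was it still called, at -1.76 (0.0203).

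The neutrophil markers fell as well. Of 8 markers, 6 were called lower and none higher, with a summed level of 40700 to 64500 CPM in controls and 17200 to 23600 CPM in *MxCDX2* mice, and none was at 0 in any mouse. *Ly6g*, which defines neutrophils, had 110, 107 and 106 CPM in controls and 25.3, 37.0 and 25.9 CPM in *MxCDX2* mice. The monocyte and macrophage markers, given above with *Fcgr2b*, moved the other way from *Fcgr4*, with 4 of 9 called higher and none lower. The part of these cell types in the fall of *Fcgr4* was not tested.

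*Fcgr3* (ENSMUSG00000059498), which lies 21.4 kb beyond *Fcgr4* on the minus strand of chromosome 1 (171051174 to 171064935), encodes the low-affinity activating receptor of natural killer cells, neutrophils, mast cells and macrophages. It had 281, 252 and 175 CPM in controls and 309, 212 and 238 CPM in *MxCDX2* mice. The groups overlapped, and the log2 fold change was 0.10 (edgeR, 95% confidence interval -0.42 to 0.62, adjusted p = 0.785). Its sign turned without the wild-type control (-0.06) and without *MxCDX2* mouse 1 (-0.07).

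*Fcgr1* (ENSMUSG00000015947), the gene of the high-affinity receptor, is the receptor gene that lies elsewhere, on the minus strand of chromosome 3 (96282909 to 96293969). Its levels were low, 13.2, 9.63 and 21.6 CPM in controls and 14.2, 20.1 and 12.7 CPM in *MxCDX2* mice. The highest single value belonged to the wild-type control, and the *MxCDX2* values all fell within the control range. The log2 fold change of 0.08 (edgeR, 95% confidence interval -0.71 to 0.87, adjusted p = 0.890) leaves room for a change of up to 1.83-fold upward. It was -0.15 without control 2, -0.13 without *MxCDX2* mouse 2 and 0.48 without the wild-type control.

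*Fcer1g* (ENSMUSG00000058715), the gene of the common γ chain, lies on the minus strand of chromosome 1 (171229572 to 171234365). Its level was 273, 238 and 341 CPM in controls and 368, 379 and 361 CPM in *MxCDX2* mice. The groups did not overlap, and the *MxCDX2* mice were close together (SD 9.17 CPM, against 52.5 CPM in controls, n = 3 each). The level was 1.30-fold higher (95% confidence interval 1.01 to 1.67), a log2 fold change of 0.38 (SE 0.15), and its adjusted p in edgeR of 0.121 missed the threshold. Without the wild-type control the value was 0.55 (adjusted p = 0.0138), which passed in p but stayed under the fold threshold.

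*Fcgrt* (ENSMUSG00000003420), the neonatal receptor gene on the minus strand of chromosome 7 (45092990 to 45103851), was the gene whose result depended most on 1 mouse. It had 27.2 and 28.0 CPM in controls 1 and 2 but 88.9 CPM in the wild-type control, and 63.7, 60.1 and 94.8 CPM in the *MxCDX2* mice. The wild-type control thus lay inside the *MxCDX2* range, and the other controls lay below it. The log2 fold change was 0.60 (edgeR, SE 0.49, 95% confidence interval -0.56 to 1.76, adjusted p = 0.428) with all controls. Without the wild-type control it was 1.42 (SE 0.22, adjusted p = 0.00912) and *Fcgrt* was called. In that mouse the summed level of the 4 megakaryocyte markers was 5430 CPM, against 652 and 452 CPM in the other controls and 209 to 290 CPM in *MxCDX2* mice. The 5 endothelial and sinusoid markers summed to 247 CPM there, against 117 and 111 CPM in the other controls and 122 to 145 CPM in *MxCDX2* mice. Most of the sum in *MxCDX2* mice was *Pecam1* (106 to 125 CPM). In the same list *Cdh5* (log2 fold change -1.73) and *Stab2* (-1.96) were called lower and no gene higher. The 5 dendritic cell markers summed to 364 CPM in the wild-type control, against 148 and 126 CPM in the other controls and 63.1 to 74.5 CPM in *MxCDX2* mice. No gene of these lists was at 0 in any mouse, and their part in the level of *Fcgrt* was not tested.

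**Figure D2:**
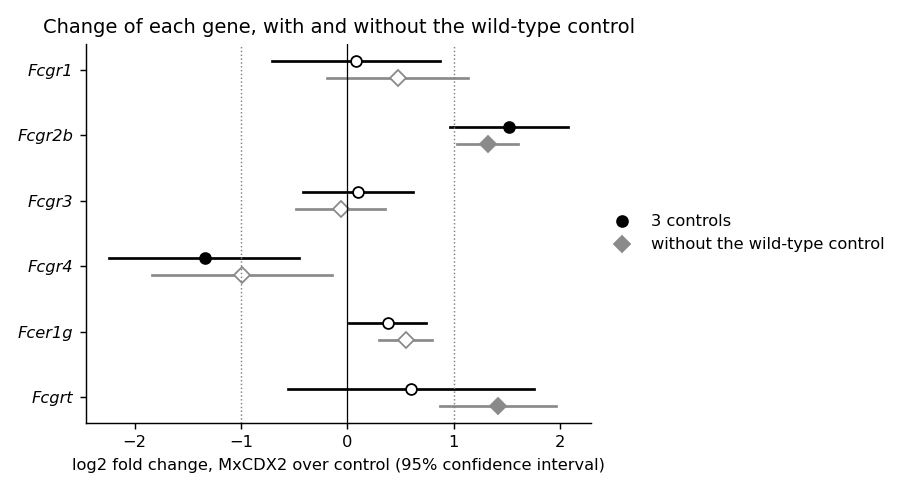
Log2 fold change of each gene (*MxCDX2* over control, horizontal axis) with its 95% confidence interval, from all 3 controls (black circles) and without the wild-type control (grey diamonds). Filled symbols mark called genes and dotted lines the fold threshold. *Fcgr2b* was called in both fits, *Fcgr4* only with the wild-type control and *Fcgrt* only without it. The call of *Fcgr4* was also lost when other single mice were left out (5 of 6 fits in all).

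*Fcgr2b*, *Fcgr4*, *Fcgr3* and *Fcer1g* lie in that order within 276 kb of chromosome 1. Of 13 other annotated genes in this stretch, 5 were tested and none was called (lowest adjusted p = 0.138). The stretches upstream of the RefSeq starts of the neighbouring receptor genes are shown, together with that of *Fcgr1*. Of these neighbours 1 rose, 1 fell and 1 did not pass. Each stretch runs from 5′ to 3′ on the strand of its gene in the RefSeq promoter table (GRCm38.p6). It holds no annotated exon and comes nearest to the RefSeq start. The stretches of *Fcgr2b* and *Fcgr3* lie within the annotated span of the gene, and those of *Fcgr4* and *Fcgr1* lie outside it. Capitals mark the core letters bound by PU.1, a myeloid and B-cell transcription factor (GAGGAA, or TTCCTC on the opposite strand).
*Fcgr2b*, chr1:170976128-170976174, minus strand: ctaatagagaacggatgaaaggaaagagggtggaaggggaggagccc
*Fcgr4*, chr1:171018820-171018919, plus strand: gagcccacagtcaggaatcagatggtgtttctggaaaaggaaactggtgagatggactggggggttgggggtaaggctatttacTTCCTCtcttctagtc
*Fcgr3*, chr1:171059404-171059503, minus strand: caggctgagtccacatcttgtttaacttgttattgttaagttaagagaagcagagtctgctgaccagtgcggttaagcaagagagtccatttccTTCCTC
*Fcgr1*, chr3:96293970-96294069, minus strand: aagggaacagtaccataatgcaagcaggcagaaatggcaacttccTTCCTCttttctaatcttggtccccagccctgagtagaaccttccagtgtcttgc

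The motifs were searched on both strands in the 250 bases before the RefSeq start, the same window in all 6 genes and in 27025 genes of the table. The PU.1 core was present in *Fcgr1*, *Fcgr3* and *Fcgr4*, at 55, 6 and 22 bases before the start and each time on the opposite strand, and in 23.1% of all promoters. It was not found in the windows of *Fcgr2b*, *Fcer1g* and *Fcgrt*. The interferon gamma activation element TTCNNNGAA was present in *Fcgr1* alone, 109 bases before the start, and in 7.18% of all promoters. The letters TTTATT, the core bound by CDX proteins, were present once among these genes, 128 bases before the start of *Fcgr2b*, and in 18.5% of all promoters. The C/EBP letters TTNNGNAA were present in *Fcgr3*, *Fcgr4* and *Fcgrt* and in 36.9% of all promoters, and the GATA letters AGATAA were present in none of the 6 genes and in 10.3% of all promoters. These matches are a description of letters and not of binding. In the window of *Fcgr2b*, 203 of the 250 bases lie in annotated exons, of *Fcgr2b* itself or of the antisense gene *Gm38204*.

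Levels of different genes were compared per kb of annotated exon. In controls the order was *Fcer1g* (325 CPM per kb), *Fcgr3* (136), *Fcgr4* (45.7), *Fcgrt* (22.8), *Fcgr2b* (16.9) and *Fcgr1* (5.72). The ranges over mice overlapped between *Fcgr4* and *Fcgrt* and between *Fcgrt* and *Fcgr2b*, and the other neighbours in this order did not overlap. In *MxCDX2* mice *Fcgr2b* stood directly after *Fcer1g* (423 CPM per kb) and *Fcgr3* (146), with 48.6 CPM per kb, followed by *Fcgrt* (34.7), *Fcgr4* (18.1) and *Fcgr1* (6.05), and only *Fcgr2b* and *Fcgrt* overlapped. *Fcgr2b* has a long annotated exon sequence of 5790 bases but a coding sequence of 1020 bases, and per kb of coding sequence it also followed *Fcgr3* in controls, at 95.9 CPM per kb.

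The sum of the 4 Fcγ receptor transcripts overlapped between groups, with 204 ± 20.8 CPM per kb of exon in controls and 218 ± 33.0 in *MxCDX2* mice (SD, n = 3 each). The shares of *Fcgr2b* and *Fcgr4* in this sum did not overlap. *Fcgr2b* made up 9.27%, 9.13% and 6.10% of this sum in controls 1, 2 and 3 and 17.4%, 25.8% and 25.0% in *MxCDX2* mice. *Fcgr4* made up 16.9%, 17% and 34.9% in controls and 10.7%, 6.26% and 7.13% in *MxCDX2* mice. *Fcgr3* was the largest share per kb of exon in every mouse, at 54.5% to 72.0% in controls and 63.9% to 69.8% in *MxCDX2* mice, and *Fcgr1* the smallest, at 1.85% to 4.50% in controls and 2.15% to 4.06% in *MxCDX2* mice. Per kb of coding sequence the mean share of *Fcgr2b* was 19.7% in controls and 43.8% in *MxCDX2* mice, and *Fcgr3* was not the largest share in *MxCDX2* mouse 2 (45.5% against 48.2% for *Fcgr2b*) and equal to it in *MxCDX2* mouse 3 (47.2% each).

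**Figure D3:**
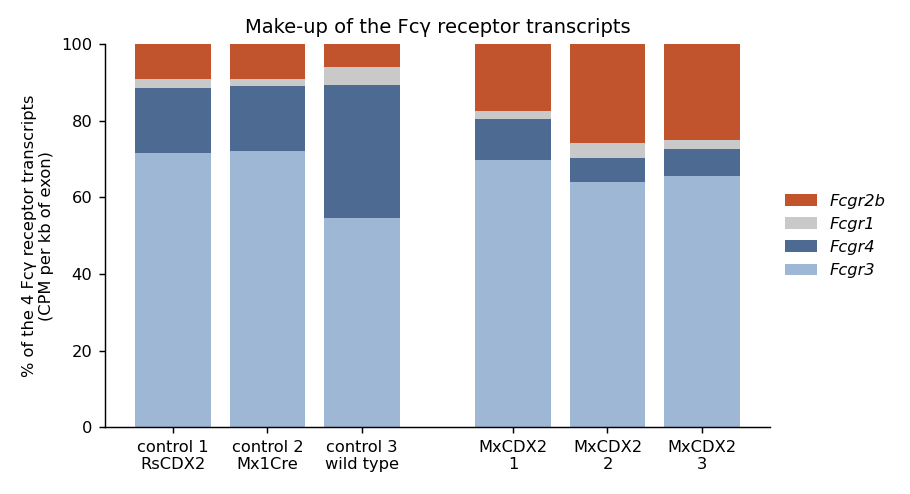
Share of each Fcγ receptor gene in the sum of the 4 genes (CPM per kb of exon, percent) in each of the 3 control and 3 *MxCDX2* mice. *Fcgr2b* (orange, top) takes 6.10% to 9.27% in controls and 17.4% to 25.8% in *MxCDX2* mice, and *Fcgr4* (dark blue) is largest in the wild-type control.

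Activating and inhibitory receptors act against each other on the same cell. Their transcripts were compared within each mouse as a ratio of counts per kb of exon. In whole bone marrow RNA this ratio mixes cell types and does not give the balance on a cell. The summed activating receptor genes *Fcgr1*, *Fcgr3* and *Fcgr4* stood at 9.78, 9.95 and 15.4 times *Fcgr2b* in controls and at 4.76, 2.88 and 2.99 times in *MxCDX2* mice. The groups did not overlap, and the ratio was 3.32-fold lower in *MxCDX2* mice (log2 difference -1.73, exact permutation test over 3 against 3 mice, two-sided p = 0.10, the smallest that this design can give). *Fcgr3*, which held most of the sum, was 7.72, 7.88 and 8.92 times *Fcgr2b* in controls and 4.02, 2.48 and 2.62 times in *MxCDX2* mice. *Fcgr4* was 1.82, 1.86 and 5.73 times *Fcgr2b* in controls and 0.617, 0.243 and 0.285 times in *MxCDX2* mice, so per kb of exon *Fcgr4* was above *Fcgr2b* in every control and below it in every *MxCDX2* mouse. Per kb of coding sequence *Fcgr2b* was already above *Fcgr4* in control 1 (119 against 64.3 CPM per kb) and control 2 (104 against 57.7). The ratio of *Fcgr1* to *Fcgr2b* was 0.243, 0.202 and 0.738 in controls and 0.124, 0.158 and 0.0937 in *MxCDX2* mice. These 3 ratios also did not overlap between groups (p = 0.10 each in the exact permutation test). Without the wild-type control the log2 difference was -1.52 for the sum, -1.40 for *Fcgr3*, -2.40 for *Fcgr4* and -0.86 for *Fcgr1*.

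The common γ chain was compared with the activating receptors that need it. *Fcer1g* stood at 1.52, 1.48 and 2.24 times their sum in controls and at 2.00, 3.06 and 2.64 times in *MxCDX2* mice. The groups overlapped, since the wild-type control lay above *MxCDX2* mouse 1 (log2 difference 0.56, exact permutation test, p = 0.200).

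**Figure D4:**
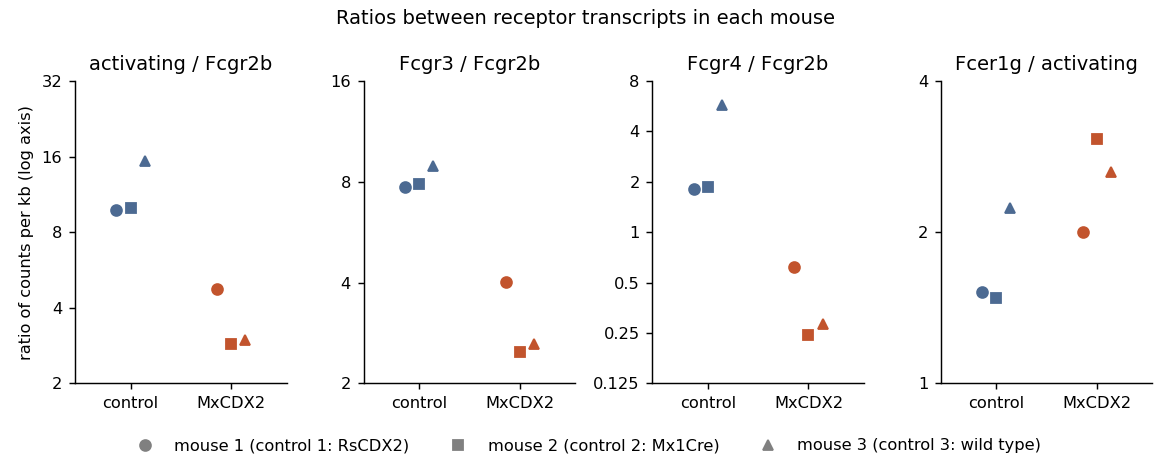
Ratios of counts per kb of exon in each mouse on log axes, with controls in blue and *MxCDX2* mice in orange. The ratio of the activating receptor genes to *Fcgr2b* was 9.78 to 15.4 in controls and 2.88 to 4.76 in *MxCDX2* mice, and only the ratio of *Fcer1g* to the activating genes overlaps between groups.

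The genes were also compared with *Ptprc*, which encodes the leukocyte antigen CD45 and had a log2 fold change of -0.02 itself (edgeR, adjusted p = 0.934). *Fcgr2b* was 0.556, 0.448 and 0.303 times *Ptprc* in controls and 1.29, 1.12 and 1.45 times in *MxCDX2* mice, without overlap. *Fcgr4* was 1.01, 0.836 and 1.74 times *Ptprc* in controls and 0.795, 0.272 and 0.413 times in *MxCDX2* mice, also without overlap (both p = 0.10 in the exact permutation test). The ratios of the other 4 genes to *Ptprc* overlapped between groups, with log2 differences of 0.42 for *Fcer1g* (p = 0.200), 0.84 for *Fcgrt* (p = 0.300), 0.14 for *Fcgr3* and 0.16 for *Fcgr1* (p = 0.700 each, exact permutation tests). These and the ratios above made up 11 comparisons, 6 of them without overlap, and no p could fall below 0.10 before or after adjustment. Each of these 6 ratios holds *Fcgr2b* or *Fcgr4*, the called members. They thus share terms and are not independent of each other or of those calls.

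Against *Csf1r*, the gene of the receptor for the monocyte and macrophage growth factor, the picture was different. This denominator was chosen after the values were seen, since *Csf1r* itself had a log2 fold change of 2.08 (edgeR, adjusted p = 0.00196). *Fcgr2b* was 0.832, 0.479 and 0.318 times *Csf1r* in controls and 0.369, 0.322 and 0.359 times in *MxCDX2* mice, which overlapped (log2 difference -0.53, exact permutation test, p = 0.400). *Fcgr3*, *Fcer1g* and *Fcgrt* were 3.96-fold, 3.25-fold and 2.44-fold lower relative to *Csf1r* in *MxCDX2* mice, without overlap between groups (p = 0.10 each, exact permutation tests). A gene with no change of its own would also be lower relative to *Csf1r*. These tests therefore cannot tell a fall of the 3 genes from the rise of *Csf1r*. *Fcgr4* relative to the neutrophil gene *Ly6g*, also chosen after the values were seen, was 0.327, 0.301 and 0.572 in controls and 1.02, 0.304 and 0.542 in *MxCDX2* mice, and the groups overlapped (log2 difference 0.53, exact permutation test, p = 0.6).

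The genes whose level followed that of the called members most closely were searched among 11911 other genes that averaged 100 or more normalized counts, by Pearson's r of log2 CPM over the 6 mice. For *Fcgr2b* they included *Arpc1b* and *Phf19* (r = 0.999 each), and 532 genes had an r above 0.95. For *Fcgr4* they were *Enpp4* (r = 0.999), *Tubb1* (r = 0.996) and *Usp24* (r = 0.993), and 141 genes had an r above 0.95. The 6 points fall into the 2 groups of mice. For *Fcgr4* the wild-type control also stood apart, at 81.2 CPM against 48.1 and 43.1 CPM in the other controls. The r is used here only to rank the genes.

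Other genes that bind antibody, carry its signal or handle it were taken from 6 lists of 60 genes, of which 57 were tested. In all, 3 were called higher and 12 lower, beside 4.59% and 9.03% of all tested genes, and their median log2 fold change was -0.22 against 0.0 for all tested genes.

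**Figure D5:**
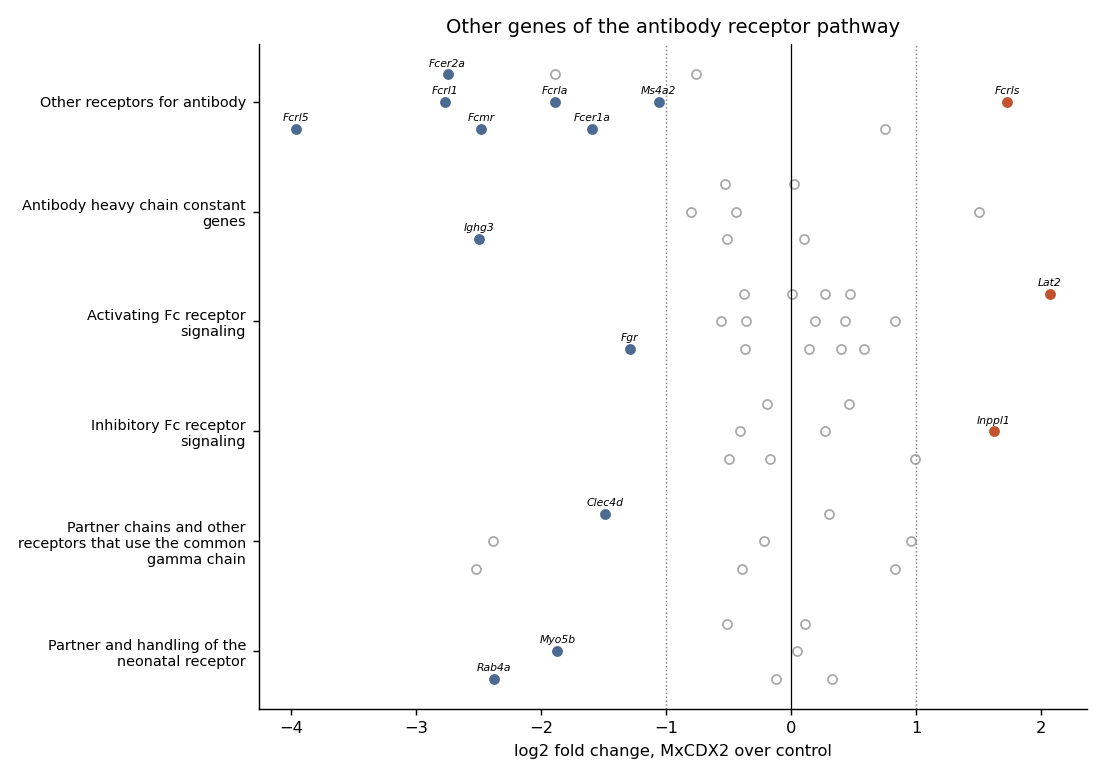
Log2 fold change (*MxCDX2* over control, horizontal axis) of the 57 tested genes in 6 lists of the antibody receptor pathway. Filled and named symbols mark called genes (orange higher, blue lower) and dotted lines the fold threshold. Of the 12 genes called lower, 7 belong to the other receptors for antibody, and each signaling list holds 1 gene called higher.

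Among 12 other receptors for antibody, 11 were tested, 7 were called lower and 1 higher. Genes of B cells were lower, with log2 fold changes of -2.75 for *Fcer2a*, the low-affinity IgE receptor, -2.48 for *Fcmr*, the IgM receptor, -2.77 for *Fcrl1*, -3.96 for *Fcrl5* and -1.89 for *Fcrla*, which encode relatives of the Fc receptors. *Fcrl5* had 9.22 CPM in the wild-type control against 1.32 and 0.786 in the other controls, and without that mouse its value was -2.09 (edgeR, adjusted p = 0.0373). The B-cell markers, given above with *Fcgr2b*, were lower too, and their part was not tested. The mast cell and basophil receptor chains for IgE, *Fcer1a* and *Ms4a2*, fell by 1.59 and 1.06 on the log2 scale. The gene called higher was *Fcrls*, at 0.10 to 0.141 CPM in controls and 0.303 to 0.498 CPM in *MxCDX2* mice. With a mouse left out, *Fcer2a* and *Fcrl1* were called in all 6 fits. *Fcmr* lost its call without *MxCDX2* mouse 3 (-2.56, edgeR adjusted p = 0.0529). *Fcrl5* lost it without any 1 *MxCDX2* mouse (-4.30 to -3.60), and *Fcrla* without control 1, control 2, *MxCDX2* mouse 2 or *MxCDX2* mouse 3 (-1.93 to -1.53). *Fcer1a* kept it only without *MxCDX2* mouse 3 (-1.26), *Ms4a2* only without the wild-type control (-1.14) and *Fcrls* only without *MxCDX2* mouse 1 (1.88). With the replicate number as a block, *Fcer1a*, *Fcrla* and *Fcrls* were not called (edgeR adjusted p = 0.053, 0.0655 and 0.0555). *Trim21*, the antibody receptor of the cytosol, had a log2 fold change of 0.75 (edgeR, adjusted p = 0.0115), under the fold threshold. *Fcamr* (-1.89, adjusted p = 0.0584) and *Fcrlb* (-0.76, adjusted p = 0.162) did not pass, and *Fcamr* was called without control 1 (-2.22, edgeR adjusted p = 0.043).

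Mast cell and basophil markers, which mark cells that carry these IgE receptor chains, were called lower in 2 of 4 tested genes and higher in none, and the list's 5 genes summed to 255 to 318 CPM in controls and 57.1 to 134 CPM in *MxCDX2* mice. *Tpsb2*, which was not among the tested genes, was at 0 in all 3 *MxCDX2* mice. It was near 0 in controls 1 and 2 as well (0.0281 and 0.0655 CPM) and at 2.73 CPM in the wild-type control. The part of these cells in the falls of *Fcer1a* and *Ms4a2* was not tested.

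Of the genes for the antibodies themselves, 8 heavy chain constant and J chain genes were tested and 1 was called, *Ighg3*, which fell by 2.5 on the log2 scale (14.3, 14.3 and 6.4 CPM in controls and 1.37, 2.11 and 2.70 CPM in *MxCDX2* mice). The most abundant ones, *Igha* (-0.44), *Jchain* (-0.53), *Ighm* (-0.80) and *Ighg2b* (-0.51), did not pass, and *Igha* ranged from 1950 to 10800 CPM among controls. Without the wild-type control, *Ighm* was called lower (-1.10, edgeR adjusted p = 0.0166). Constant genes of IgG share sequence, so reads may be divided among them with error.

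Activating signals run from the γ chain through kinases of the Src family and Syk to adaptors and lipid enzymes. Of 15 such genes, 1 was called higher and 1 lower. *Lat2*, an adaptor phosphorylated after Fc receptor engagement, had 35, 46.0 and 52.6 CPM in controls and 166, 193 and 202 CPM in *MxCDX2* mice, without overlap (edgeR log2 fold change 2.07, SE 0.17, adjusted p = 0.00156). *Fgr*, a kinase of the Src family in myeloid cells, had 266, 259 and 265 CPM in controls and 77.8, 155 and 90.4 CPM in *MxCDX2* mice (edgeR log2 fold change -1.29, adjusted p = 0.0153). *Lat2* was called in each fit with a mouse left out, and *Fgr* was not called without *MxCDX2* mouse 3 (-1.18, edgeR adjusted p = 0.0679). Among the most abundant of the others, *Prkcd* (0.83, adjusted p = 0.0252) and *Pik3cd* (0.58, adjusted p = 0.0462) passed in p but not in fold, *Prkcd* was called without control 2 (1.03), and *Rac2* (-0.38) and *Syk* (-0.56) did not pass.

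Of 8 genes of inhibitory signaling, 1 was called higher and none lower. *Inppl1*, which encodes the lipid phosphatase SHIP2, had 12.0, 36.3 and 34.9 CPM in controls and 95.1, 97.9 and 63.7 CPM in *MxCDX2* mice (edgeR log2 fold change 1.62, SE 0.42, adjusted p = 0.0366). The call was lost without control 2 (1.87), *MxCDX2* mouse 1 (1.54), *MxCDX2* mouse 2 (1.52) or *MxCDX2* mouse 3 (1.80), with edgeR adjusted p between 0.0535 and 0.103. *Inpp5d*, which encodes SHIP1, the phosphatase best known to act with the inhibitory receptor, had a log2 fold change of 0.27 (adjusted p = 0.166). *Cbl*, which encodes a ubiquitin ligase and is named after its values were seen, lay at the fold threshold (0.99, edgeR adjusted p = 0.0173). It was called without the wild-type control (1.05), control 2 (1.15) or *MxCDX2* mouse 2 (1.06) and with the replicate block (1.01, adjusted p = 0.0396). The phosphatase genes *Ptpn6* (0.46) and *Ptpn11* (-0.41) and the kinase gene *Csk* (-0.19) did not pass.

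Of 8 partner chains and other receptors that use the common γ chain, only *Clec4d* was called, at 182, 122 and 56.9 CPM in controls and 57.0, 39.5 and 31.7 CPM in *MxCDX2* mice. The wild-type control lay just below the highest *MxCDX2* mouse, and the adjusted p was 0.0499 (edgeR log2 fold change -1.49). It was called without the wild-type control (-1.81) and in no other fit with a mouse left out (-1.75 to -1.05). *Tyrobp*, the other main signaling chain of myeloid cells, had a log2 fold change of 0.30 (adjusted p = 0.157), against 0.38 for *Fcer1g*. *Clec4e* (0.83), *Pira2* (0.96) and the platelet collagen receptor gene *Gp6* (-2.52) were not called. *Gp6* had 69.8 CPM in the wild-type control against 10.7 and 6.38 CPM in the other controls, and its value was -0.74 without the wild-type control and -3.00 (edgeR adjusted p = 0.0476, called) without control 2. *Clec4e* was called without control 1 (1.38), and *Pira2* without control 2 (1.18) or *MxCDX2* mouse 1 (1.10). *Oscar*, named after its values were seen, was called with the replicate block (-2.46, edgeR adjusted p = 0.0249).

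Of 8 genes for the partner and handling of the neonatal receptor, 7 were tested and 2 were called lower, *Rab4a*, a regulator of endosome recycling (edgeR log2 fold change -2.38, adjusted p = 0.00532), and the myosin gene *Myo5b* (-1.87, adjusted p = 0.0433). *Rab4a* was called in every fit with a mouse left out, *Myo5b* in none of them (-2.39 to -1.56) and not with the replicate block (-1.91, edgeR adjusted p = 0.0591). *B2m*, the partner chain, had 999, 1010 and 1720 CPM in controls and 2140, 1180 and 1370 CPM in *MxCDX2* mice (log2 fold change 0.33, adjusted p = 0.505). Like *Fcgrt*, it was highest among the controls in the wild-type mouse. *Vps35* (0.05), *Rab11a* (-0.51) and *Snx4* (0.11) did not pass.

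The receptor genes are related in sequence, so shared words of 50 bases were counted between transcripts on either strand. *Fcgr3* and *Fcgr2b* had 166 words in common, which is 9.58% of the words of *Fcgr3* and 2.92% of those of *Fcgr2b*. Reads in these stretches could belong to either gene, and their number is not in the counts. Over all other genes, *Fcgr2b* shared 395 words (6.95%), among them 107 with the antisense gene *Gm38204* and 98 with *Cplx2*. *Fcgr1*, *Fcgr4*, *Fcer1g* and *Fcgrt* shared no word of this length with another gene.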

How the data were processed

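Bone marrow RNA of 3 *MxCDX2* mice and 3 control littermates was sequenced as stranded mRNA libraries. The authors used STAR 2.5 with GRCm38 for alignment and HTSeq 0.6.1 for counting, per the submitters' processing notes, and deposited raw counts per gene and mouse. Reads on no gene (9.22% to 14.06%) and on more than 1 gene (2.99% to 3.16%) were left out. Identifiers were named from GENCODE M21 (37693 of 39179).

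The tests were run with edgeR 4.0.16 in R 4.3.3 (TMM, default filterByExpr, glmQLFit, glmQLFTest, Benjamini-Hochberg over 15980 genes). A standard error was the absolute log2 fold change divided by the root of its F statistic. Alternatives included DESeq2 1.42.0 and limma 3.58.1 (voom), other scalings and filters, a replicate block and each mouse left out. Ratios were compared by exact permutation tests in Python 3.11.15. Each library was 1 mouse, and p-values measure the spread between these mice, which at this depth limits the precision.

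Replicate numbers came from the labels, where they stand in different fields for the 2 groups. Around the group means, mice with equal numbers correlated at 0.169, 0.286 and 0.182 across genes, and mice with unequal numbers at -0.328 to 0.103. Every pair with equal numbers thus lay above every other pair. The labels do not say what the numbers stand for. The main fit had no block, and the block was kept as an alternative.

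The members and gene lists were chosen with earlier results of these data known. Named were all members, every called gene of the pathway lists and up to 4 further genes per list with the highest mean level, and for each called member the 3 genes with the highest r. Some genes that this rule names are not reported here. Defining genes stand for the marker lists. Protein sequences were not used here.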

Additional observations from a re-analysis of the deposited data

How the results depend on the processing

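The limits are the 3 mice per group, 1 control mouse of each genotype and the wild-type control, on which the result of *Fcgrt* depended. The call of *Fcgr4* was lost in 5 of 6 fits with a mouse left out, the fit without the wild-type control among them. The number of reads does not limit the members, since each had at least 441 in every mouse. *Fcgr2b* was called in every alternative and leave-one-out fit except glmTreat against a fold change of 1 in log2 units (1.52, adjusted p = 0.118, edgeR), where 0 members were called higher and 0 lower. *Fcgr4* was not called there (-1.34, adjusted p = 0.543), at an adjusted p below 0.01 (-1.34) or with total counts only (-1.25, adjusted p = 0.0541), where the members called lower were 0, and the cause was not tested.

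With any 1 mouse left out, the members called higher were 1 to 2 and those called lower 0 to 1. The log2 fold change was 1.32 to 1.73 for *Fcgr2b*, -1.76 to -0.99 for *Fcgr4*, 0.27 to 0.55 for *Fcer1g*, 0.33 to 1.42 for *Fcgrt*, -0.15 to 0.48 for *Fcgr1* and -0.07 to 0.26 for *Fcgr3*. The log2 ratio to *Ptprc* was -0.15 to 0.50 for *Fcgr1* and -0.09 to 0.36 for *Fcgr3*, and with *Csf1r* in place of *Ptprc*, chosen after seeing the data, it was -0.53 for *Fcgr2b*, -1.99 for *Fcgr3*, -1.70 for *Fcer1g* and -1.29 for *Fcgrt*, and 0.53 for *Fcgr4* with *Ly6g*. The other ratios kept their direction in every alternative.

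Over all genes, those called higher and lower were 446 and 597 at an adjusted p below 0.01, 239 and 372 with glmTreat, and 511 to 924 and 694 to 1482 with a mouse left out, and 1583 and 1888 with no fold threshold. DESeq2 called 878 and 2022. Of the 15 pathway genes called, 5 were called at an adjusted p below 0.01 and 4 with glmTreat, and 6 to 12 with a mouse left out, when 0 to 4 other pathway genes were called (6 to 14 in all). The same call stood in all 6 of those fits for 5 of the 15. With the replicate block, *Fcgr2b* had 1.57, *Fcgr4* -1.38 and *Fcgrt* 0.81 (adjusted p = 0.0152, 0.0449 and 0.0837), no member's call changed, and 11 of the 15 pathway genes and 2 others were called (13 in all). By coding length, *Fcgr2b* had rank 3 among the members in controls, against 5 by exon length.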
